A study of Solanum lycopersicum with 12 samples.

Results

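The genes described here are 10 tomato loci given, by identifier, as pathogenesis-related (PR) proteins of the PR-4 and PR-5 families: 3 PR-4 loci on chromosome 1 and 7 osmotin-like PR-5 loci in a cluster on chromosome 8. They were found by matching the locus identifier without its version suffix, and 7 of the 10 had a row among the 34688 loci of the table, 2 of them PR-4 and 5 PR-5. Solyc01g097270, Solyc08g080590 and Solyc08g080600 were not analysed here. Neither the table nor the reference used here pairs these identifiers with gene names or sequences, so the family names rest on the list of loci and no sequence is shown.

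Seedlings of the cultivar Moneymaker received a leaf spray of 300 µM piperonylic acid (PA) or a mock spray, both with 0.1% Tween 20. Sprays were given 7 and 14 days after the move to pots, and harvest was on day 15. PA inhibits cinnamate 4-hydroxylase, an early enzyme of the phenylpropanoid pathway. Each of the 4 groups, PA and mock in shoot and in root, had 3 samples, each a pool of 4 plants, and messenger RNA was read from transcript 3′ ends. All plants were of 1 cultivar, and no infection or other stress is named in the labels, so the mock samples are the only controls.

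PR-4 proteins carry a Barwin domain, and some members also carry a chitin-binding domain. PR-5 proteins resemble the sweet protein thaumatin. Osmotin, the member for which the cluster is named, was described in salt-adapted tobacco cells, and its relatives can damage fungal membranes. Genes of both families are known as defence markers in plants of the nightshade family, where pathogens, wounding, salt or ethylene can raise them.

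Libraries held 4214169 to 7386030 reads, and 1 read was worth 0.761 to 1.56 normalized counts. As a check of the tissue labels, the summed level of 12 photosynthesis loci was 176561 to 200566 normalized counts in shoots without PA and 165485 to 174363 in those with PA; roots had 493 to 693 when mock-sprayed and 514 to 1141 after PA, with 1 of the 12 at 0 reads in every group. The PA shoot sums lay below all mock shoot sums. A list of 7 iron, phosphate and nitrate uptake loci summed to 1386 to 2030 in root and 287 to 396 in shoot, where 2 of the 7 in mock and 3 in PA had no read. Both lists were assigned from general knowledge of tomato identifiers. Mock shoot replicate 1 differed more from the other mock shoot libraries (chi-square per degree of freedom over loci 7.315 and 9.915) than these did from each other (4.685), and the shoot values of the members without it stand beside the results.

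The members divided by tissue before any PA effect. The PR-4 locus Solyc01g097240 and the PR-5 locus Solyc08g080620 were shoot transcripts, and the sparse PR-4 locus Solyc01g097280 had most of its reads in shoot. By contrast, the PR-5 loci Solyc08g080640, Solyc08g080650, Solyc08g080660 and Solyc08g080670 were root transcripts. In identifier order, the only measured shoot locus of the chromosome 8 cluster, Solyc08g080620, was followed by the root loci. The listed members Solyc08g080590 and Solyc08g080600, which precede it, were not analysed. These are bulk samples, so a larger number of expressing cells and more RNA per cell cannot be told apart. Reads shared between similar copies could also be split among these loci, and the sources used here do not say how such reads were counted.

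**Figure D1:**
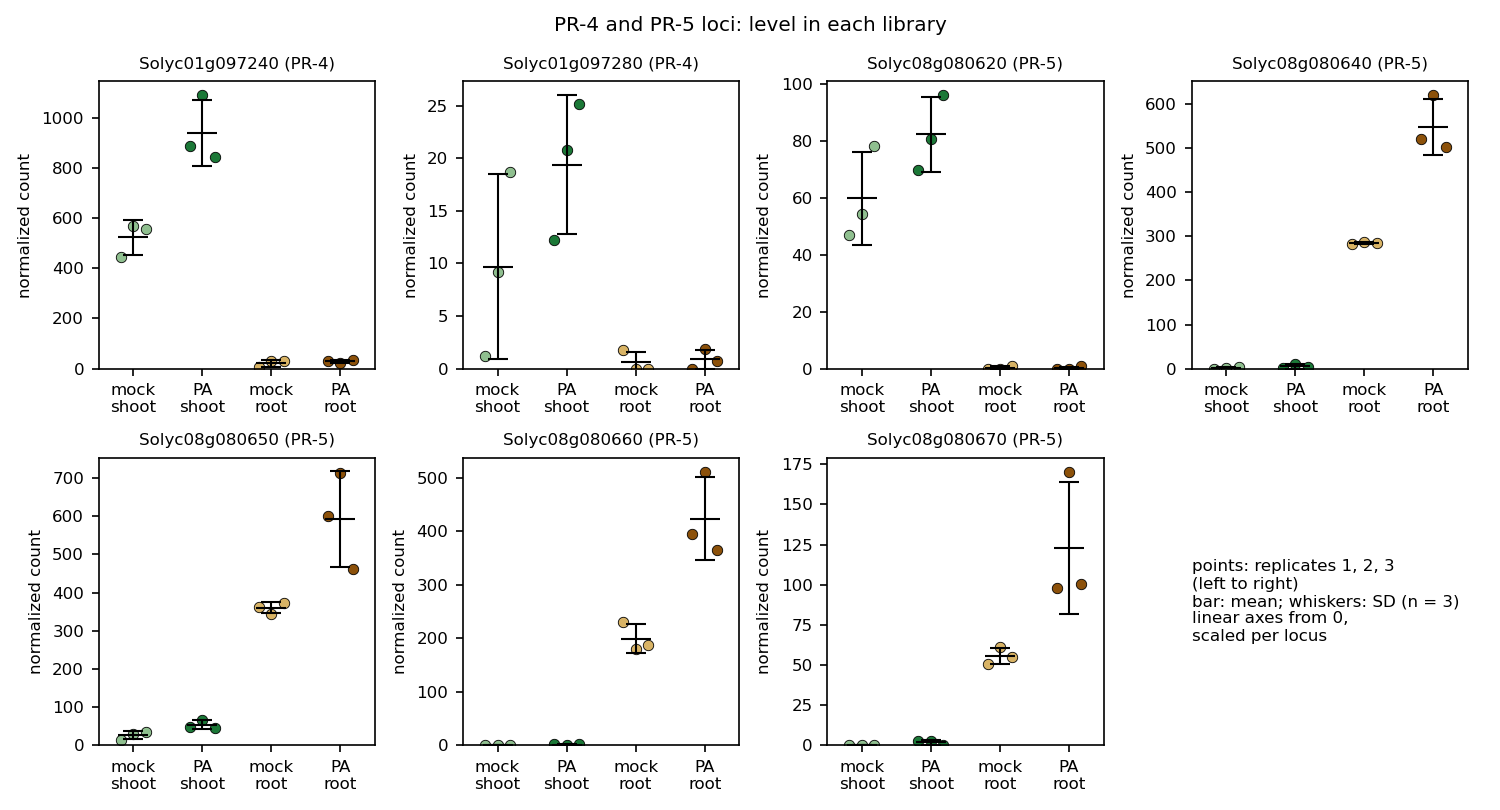
Level of the 7 measured loci in each of the 12 libraries, as normalized counts on linear axes that start at 0 and are scaled per locus; points are replicates, the bar is the mean and whiskers are the SD (n = 3). The upper left 3 panels have the higher means in shoot and the other 4 in root. In these 4 every PA root point lies above every mock root point, and the share of all loci that separate in this way was not counted.

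Solyc01g097240, the more abundant PR-4 locus, stood at 444, 569 and 558 normalized counts in mock shoot replicates 1 to 3 and at 5.25, 28.8 and 28.8 in mock root. Its groups were far apart, and mock root replicate 1, with 6 reads, was the low root library. The mock root level was lower than the mock shoot level by a log2 difference of -4.88 (SE 0.52, limma adjusted p = 2.275e-05). The second PR-4 locus, Solyc01g097280, was sparse everywhere: it had 23 reads over the 3 mock shoot libraries and 2 over the 3 mock root libraries. That gave a shoot level 15.4-fold higher, with a 95% exact counting interval of 3.796 to 134. The mock groups overlapped, with 1.15 normalized counts (1 read) in mock shoot replicate 1 and 1.75 (2 reads) in mock root replicate 1. This locus was too low to enter the test between tissues.

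Solyc08g080620 had 46.9, 54.3 and 78.1 normalized counts in mock shoot and 0, 0 and 0.871 in mock root, where the last value is a single read. The ratio of shoot to root was 200.4 with a 95% counting interval of 35.4 to 7967, and the fitted log2 difference was -5.59 (SE 0.37, limma adjusted p = 7.981e-07). Such intervals describe counting error and leave out the spread between samples. The sources used here also mention no molecular identifiers, so duplicate reads could not be told apart.

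The root members of the cluster showed the reverse. Solyc08g080640 had 283, 287 and 285 normalized counts in mock root and 0, 1.84 and 3.12 in mock shoot, a log2 difference of 6.98 (SE 0.46, limma adjusted p = 7.482e-07). Solyc08g080660 had 231, 179 and 187 in mock root and no read in mock shoot, and was at least 172-fold higher in root when 3 reads are allowed over the mock shoot group. Solyc08g080670, at 50.7, 60.9 and 54.9 in mock root, likewise had no mock shoot read. With the same allowance it was 48.2-fold higher in root, and the lower end of its counting interval was 38.8. Solyc08g080650 was the exception in degree: it had 363, 344 and 372 in mock root but also 13.7, 29.5 and 34.4 in mock shoot, a log2 difference of 3.84 (SE 0.29, limma adjusted p = 1.955e-06).

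Of the 7 measured members, 6 entered the test between mock tissues and had a limma adjusted p below 0.05, 4 with the higher level in root and 2 with the higher level in shoot. Of these, Solyc08g080620, Solyc08g080640, Solyc08g080660 and Solyc08g080670 reached the minimum mean of 10 only through the tissue where they are high, so the count is a description and not support. A tissue difference was common in the table: 66.1% of all tested loci passed, 33.6% with more in root and 32.5% with more in shoot. The members' log2 differences ran from -5.59 to 7.64, and the median over all tested loci was 0.02. Quantile scaling raised that median by 0.13 and turned no member's direction.

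Because transcripts were read from their 3′ ends, levels were not divided by length. On that scale the mock root order was Solyc08g080650, Solyc08g080640, Solyc08g080660 and Solyc08g080670, with no overlap between the replicate values of any neighbours in the order. In PA root the first 2 overlapped, at 462 to 713 and 503 to 621 normalized counts, as did Solyc08g080640 and Solyc08g080660 (364 to 511), while Solyc08g080670 stayed below the rest at 98.2 to 170.5.

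The comparison of PA root with mock root asked whether a spray on leaves was followed by a change in these genes below ground. All 4 root-expressed PR-5 loci rose in roots of PA-sprayed plants, to between 1.65 and 2.22 times the mock mean. The shoot-type PR-4 locus Solyc01g097240, the fifth member tested in root, did not pass. Of all loci tested in root, 0.478% rose and 1.11% fell. The share of all loci whose PA and mock libraries separate without overlap was not counted, so such separation is given as a description.

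Solyc08g080640 stood at 283, 287 and 285 normalized counts in mock root and at 522, 621 and 503 in PA root. The mock libraries were nearly equal and all PA libraries lay well above them. The log2 fold change was 0.94 (SE 0.10, limma adjusted p = 0.003521), higher in 3 of 3 PA libraries than in any mock library.

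Solyc08g080660 had 395, 511 and 364 normalized counts in PA root against 231, 179 and 187 in mock root. The groups did not overlap, although mock root replicate 1 was above the other mock libraries. Its log2 fold change was 1.08 (SE 0.14, limma adjusted p = 0.009454).

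Solyc08g080670, the least abundant of the 4, rose from 50.7, 60.9 and 54.9 to 98.2, 170.5 and 100.5 normalized counts. PA root replicate 2 was far above the other PA libraries, and all 3 were above the mock group. The log2 fold change was 1.09 (SE 0.20, limma adjusted p = 0.02955).

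Solyc08g080650, the member with the highest mock root level, rose from 363, 344 and 372 to 600.4, 713 and 462 normalized counts. PA root replicate 3 was the lowest of its group and still above the mock libraries. The log2 fold change, 0.70 (SE 0.14, limma adjusted p = 0.03328), was the smallest of the 4 estimates.

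By fold change these loci took places 34 (Solyc08g080670), 37 (Solyc08g080660), 62 (Solyc08g080640) and 196 (Solyc08g080650) among the 14645 loci tested in root. The median over the 5 members tested was 0.94 on the log2 scale, against 0.03 for all tested loci. In each of the 4 the highest library was PA root replicate 2. The lowest PA library was replicate 3 in 3 of them, and replicate 1 in Solyc08g080670.

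**Figure D2:**
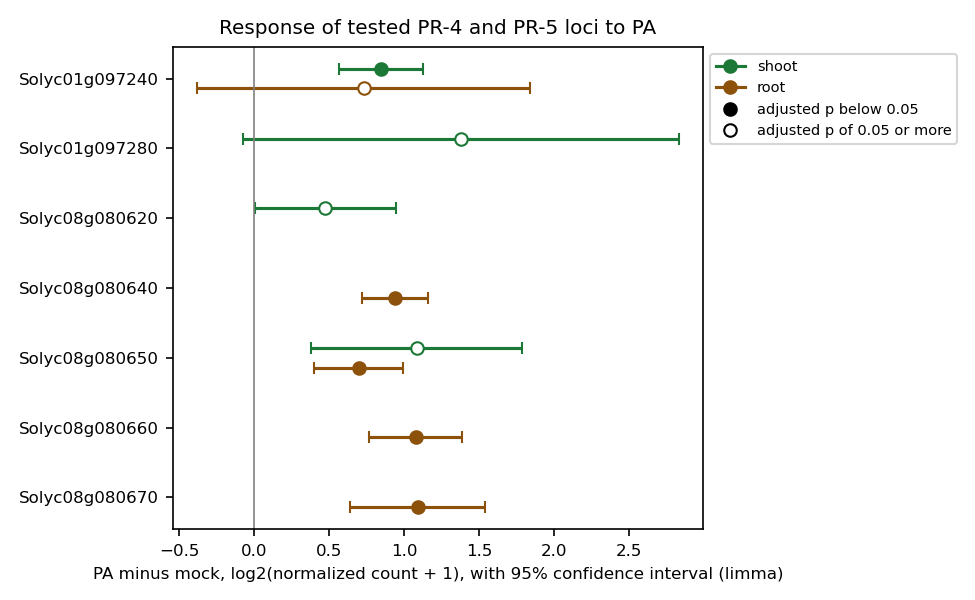
Difference between PA and mock on the log2(normalized count + 1) scale for the members that entered each fit, in shoot (green) and root (brown), with 95% confidence intervals from limma; filled points have an adjusted p below 0.05. The 4 root PR-5 loci lie between 0.70 and 1.09 in root, and of the shoot estimates only Solyc01g097240, at 0.85, is filled.

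The 4 root calls were not equally firm. Calls over the whole table also changed, from 232 loci in root to 14 and 15 without mock root replicates 2 and 3. They numbered 18 and 79 without PA root replicates 2 and 1, and 262 and 517 without mock root replicate 1 and PA root replicate 3. With 1 library left out, the limma adjusted p of Solyc08g080640 stayed below 0.05 in all 6 cases. Solyc08g080660 lost its call without mock root replicate 2 (0.05624) or 3 (0.05276). Solyc08g080670 lost it without mock root replicate 1, 2 or 3 (0.0555, 0.09557 and 0.118) or PA root replicate 2 (0.08551). Solyc08g080650 kept it in 1 case, without PA root replicate 3 (0.001006), and lost it without mock root replicates 1 to 3 (0.05753, 0.1436 and 0.1172) and PA root replicates 1 and 2 (0.1012 and 0.1363). When all 12 libraries shared one limma fit none of the 4 passed, with adjusted p of 0.6382 for Solyc08g080640, 0.3258 for Solyc08g080650, 0.1047 for Solyc08g080660 and 0.3206 for Solyc08g080670. Over all 17 alternatives the adjusted p of Solyc08g080640 ran from 2.054e-08 to 0.6382, that of Solyc08g080650 from 0.001006 to 0.3258, that of Solyc08g080660 from 1.369e-07 to 0.1047 and that of Solyc08g080670 from 0.0006821 to 0.3206. In the fit of all 12 libraries the fold changes were as above and the SEs were 0.52, 0.27, 0.30 and 0.42 in the same order. With 1 library left out, the log2 fold changes ran from 0.84 to 1.00 for Solyc08g080640, from 0.55 to 0.86 for Solyc08g080650, from 0.93 to 1.19 for Solyc08g080660 and from 0.83 to 1.23 for Solyc08g080670. The direction of all 4 held in each alternative.

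Neighbours of the members were taken as loci with identifiers within 100 units of the first or last member on either chromosome. Of the 24 tested in root limma called 0 in either direction, as did edgeR and DESeq2, and 3 had an unadjusted p below 0.05. Among all loci tested in root, limma called 1.58% (232) in either direction, and 1853 of 14645 had an unadjusted p below 0.05. Of the same loci edgeR called 226 and DESeq2 386. The neighbours' log2 fold changes ran from -0.36 to 0.64. The member pair Solyc08g080620 and Solyc08g080640 encloses Solyc08g080630, which had the tissue pattern of the root members, with 262 to 275 normalized counts in mock root and 1.15 to 4.69 in mock shoot. In PA root it had 282, 402 and 403, with replicate 1 close to the mock group. Its log2 fold change of 0.42 (SE 0.13) did not pass (limma adjusted p = 0.1736). The locus on the other side, Solyc08g080680, was also higher in mock root than in mock shoot, with a log2 difference of 1.52 (limma adjusted p = 3.034e-07), and its root groups overlapped, at 829 to 912 with mock and 736 to 1192 with PA. These 2 neighbours were singled out after their values had been seen.

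**Figure D3:**
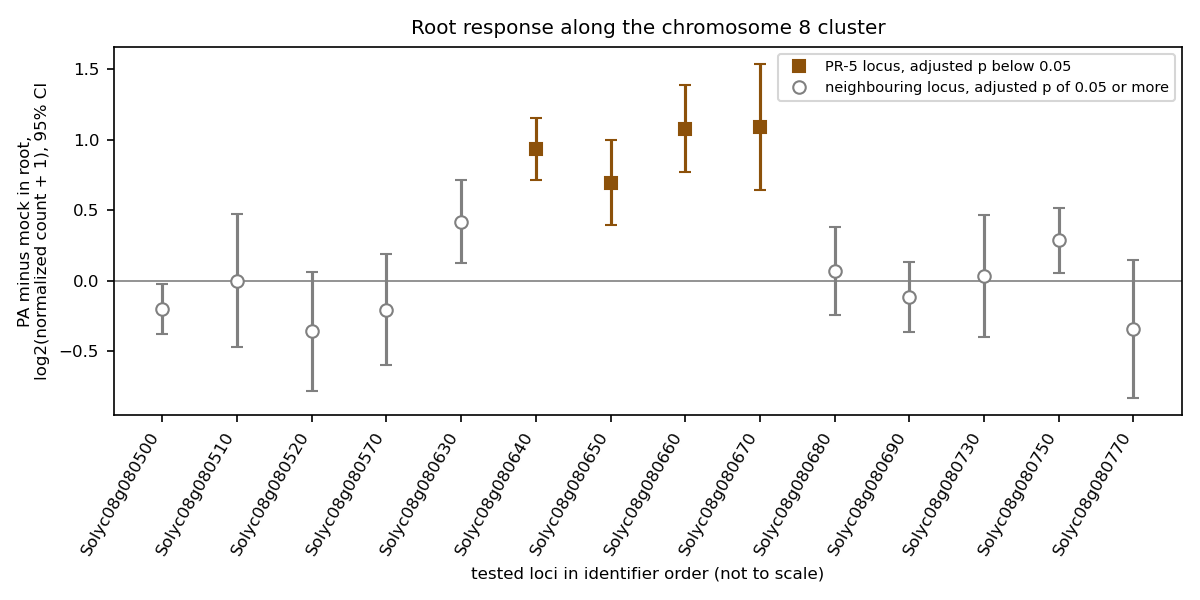
Difference between PA root and mock root on the log2(normalized count + 1) scale for each tested locus of the chromosome 8 stretch, in identifier order and not to scale, with 95% confidence intervals from limma; squares are PR-5 members, circles other loci. The 4 squares, at 0.70 to 1.09, lie above every circle, the highest circle being Solyc08g080630 at 0.42.

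The next question was whether the 4 root loci kept their proportions as they rose. Their summed level was 899.6 ± 28.6 normalized counts with mock and 1687 ± 299.9 with PA (SD, n = 3). Solyc08g080640 held 31.7 ± 1.19% of their reads in mock root and 32.8 ± 2.22% in PA root. Solyc08g080660 held 22.1 ± 2.41% and 25.1 ± 0.55%, and Solyc08g080670 6.19 ± 0.77% and 7.19 ± 1.20%. The groups overlapped for these 3 loci. Only for Solyc08g080650 did they not overlap, at 40.0 ± 1.21% in mock root and 35.0 ± 2.44% in PA root, a difference of -5.05 percentage points. The two-sided exact permutation p was 0.1 for that share, the smallest that 3 against 3 samples allow, and 0.4 after Benjamini-Hochberg adjustment over the 4 shares.

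**Figure D4:**
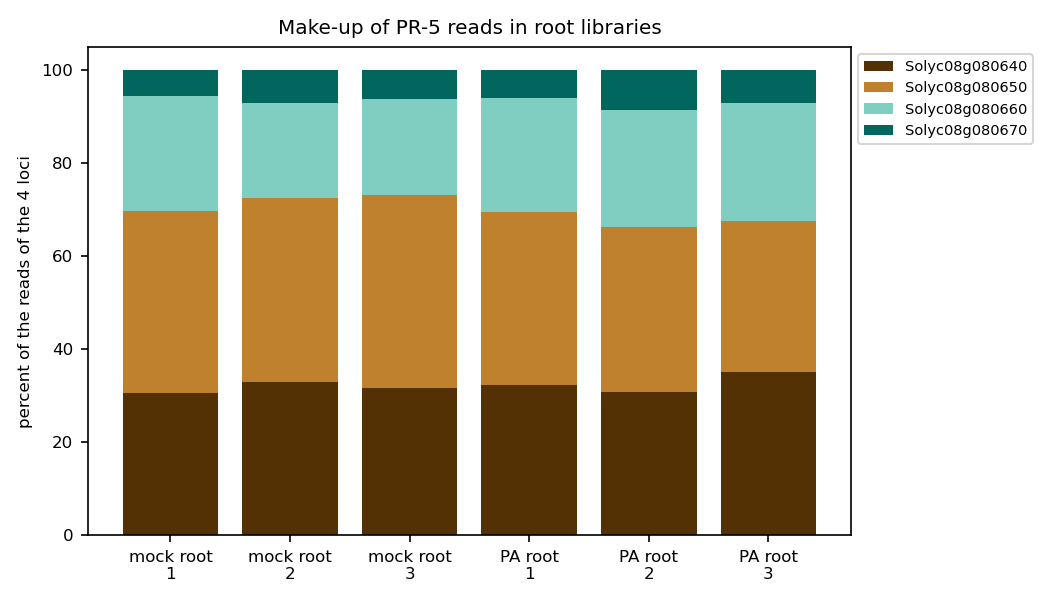
Percent of the reads of the 4 root-expressed PR-5 loci that each locus held, in the 3 mock root and 3 PA root libraries. Solyc08g080650 takes 39.1 to 41.4% with mock and 32.3 to 37.2% with PA, and the other 3 loci overlap between the groups.

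In shoots, the tissue that was sprayed, the PR-4 locus Solyc01g097240 rose after PA. It stood at 444, 569 and 558 normalized counts in mock shoot and at 888, 1091 and 846 in PA shoot. All PA libraries were above all mock libraries, with mock shoot replicate 1 the lowest and PA shoot replicate 2 the highest. The log2 fold change was 0.85 (SE 0.13, limma adjusted p = 0.005605), or 1.80 times the mock mean. It was the only call among the 4 members tested in shoot, where 0.924% of all tested loci rose and 0.655% fell. The call held when any 1 of the 6 libraries was left out, with an adjusted p of 0.00118 and a log2 fold change of 0.73 without mock shoot replicate 1 and an adjusted p of 0.0473, the highest of these, without PA shoot replicate 2. It was lost with all 12 libraries in one fit (adjusted p = 0.3825, within 9.627e-07 to 0.3825 over its 17 alternatives). In the same libraries the 210 loci at least 64-fold higher in mock shoot than in mock root held 20.1 to 21.5% of reads with mock and 18.8 to 18.9% with PA. Choosing these loci on mock libraries favours high mock shoot values, and the part of this shift in the shoot results was not tested.

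The other 3 members tested in shoot had higher means with PA and did not pass. Solyc08g080650, the root member with a measurable shoot level, had 13.7, 29.5 and 34.4 normalized counts in mock shoot and 46.6, 66.9 and 45.6 in PA shoot. These groups did not overlap. The log2 fold change was 1.08 with a 95% confidence interval of 0.38 to 1.78 (limma adjusted p = 0.1359), and without mock shoot replicate 1, the lowest library, it was 0.70. Solyc08g080620 had 46.9, 54.3 and 78.1 in mock and 69.9, 80.8 and 96.0 in PA shoot, so the groups overlapped (log2 fold change 0.47, interval 0.01 to 0.94, limma adjusted p = 0.3459, and 0.32 without mock shoot replicate 1). Solyc01g097280 had 1.15, 9.21 and 18.7 in mock and 12.3, 20.8 and 25.2 in PA shoot (log2 fold change 1.38, interval -0.08 to 2.83, limma adjusted p = 0.3795). Its mock mean of 9.70 was below the minimum mean of 10 for testing, which it passed through its PA libraries, and without mock shoot replicate 1 its estimate was 0.47.

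The remaining root members were barely detected in shoot. Solyc08g080640 had 4 reads over the mock shoot libraries and 13 over the PA shoot libraries, 9 of them in PA shoot replicate 2. Solyc08g080660 had 0 and 2 reads, and Solyc08g080670 had 0 and 4. None of these 3 loci entered the shoot test.

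A further 95 loci were at least 64-fold higher in mock root than in mock shoot. Their share of reads was 0.0123 to 0.0151% in mock shoot, 0.0154 to 0.0220% in PA shoot and 4.62 to 5.26% in the root libraries. Choosing them on mock libraries favours low mock shoot values. The level of Solyc08g080650 moved in the same direction in shoot. Low expression in shoot and carried-over root tissue cannot be told apart from this share, and its part in the Solyc08g080650 value was not tested. Solyc08g080660, with a mean of 199 in mock root against 359.8 for Solyc08g080650, had 2 reads over all 6 shoot libraries, where Solyc08g080650 had 209.

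In root, Solyc01g097240 had 5.25, 28.8 and 28.8 normalized counts with mock and 29.9, 22.1 and 34.3 with PA. The groups overlapped, and the log2 fold change of 0.73 had an interval of -0.38 to 1.84 (limma adjusted p = 0.6199). The estimate rested on mock root replicate 1, without which it was -0.02. The 210 loci at least 64-fold higher in mock shoot held 0.106 to 0.139% of mock root reads and 0.1097 to 0.202% of PA root reads. Their choice on mock libraries favours low mock root values, and the part of carried-over shoot tissue in this PR-4 value was not tested. Solyc01g097280 had 2 reads over the mock root libraries and 3 over the PA root libraries, and Solyc08g080620 had 1 in each group, so neither entered the root test.

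A difference in PA effect between the tissues could be tested for the 2 members with a mean of at least 10 in both tissues. For Solyc08g080650 the root effect minus the shoot effect was -0.39 on the log2 scale, with an interval of -1.17 to 0.40 (limma adjusted p = 0.7293). Without mock shoot replicate 1 it was -0.0018, and without mock shoot replicate 3 it was -0.63. For Solyc01g097240 it was -0.12, with an interval of -1.38 to 1.15 (limma adjusted p = 0.9624), and it was -0.0026 without mock shoot replicate 1. Omitting mock root replicate 1, its low root library, moved it to -0.87, with an interval of -1.39 to -0.34. The limma p was then 0.003155 before and 0.1711 after adjustment. Without mock root replicate 2 the estimate was 0.26. With no library left out, limma called 0 of the 2 in this test, and 0 had an unadjusted p below 0.05. The count tests edgeR and DESeq2 also called 0. Of the 13010 loci tested, limma called 49 (0.377%), edgeR 75 and DESeq2 169. Intervals this wide do not show that the effects were alike. With no filter on low values all 7 members entered, and 0 were called.

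Among the neighbouring loci, 1 of 24 tested in shoot was called, against 1.58% of all tested loci. Solyc08g080570, which precedes the PR-5 cluster in identifier order, fell from a mean of 301 ± 34.3 to 187 ± 9.10 (SD, n = 3) on the normalized scale. The log2 fold change was -0.68 (SE 0.12, limma adjusted p = 0.01637). It did not pass without mock shoot replicate 2 (adjusted p = 0.07234), PA shoot replicate 1 (0.09487) or PA shoot replicate 2 (0.08793), or with all 12 libraries in one fit (0.06045). Its adjusted p lay between 0.002276 and 0.09487 in the 17 alternatives.

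Other PR families were counted from a list of loci assigned from general knowledge of tomato identifiers. Of 7 PR-1 loci, small secreted proteins used as markers of the salicylic acid response, 0 of 2 tested rose in shoot and 2 of 3 tested rose in root. Of 4 PR-2 loci, which are beta-glucanases, 1 of 2 tested rose in shoot and 0 of 1 in root. Of 5 PR-3 loci, which are chitinases, 3 of 4 tested rose in shoot and 3 of 5 in root. Over all tested loci, 0.924% rose in shoot and 0.478% in root. No locus of these lists fell in either tissue by limma, edgeR or DESeq2, and 0 had a negative fold change with an unadjusted p below 0.05. The median log2 fold changes of the tested loci were 1.59, 0.65 and 1.06 in shoot and 0.88, 0.26 and 0.81 in root, in that order, beside -0.02 and 0.03 for all tested loci.

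Loci outside the families with the most similar profile were found by the root mean square difference in log2(value + 1) over the 12 libraries, after each locus was centred on its own mean, among 10872 loci with a mean of at least 50. Nearest to Solyc01g097240 were Solyc02g082930 of the PR-3 list, at 0.48, and Solyc02g077040, at 0.49. Solyc02g077040 also rose in shoot, from a mean of 776 ± 181 to one of 1638 ± 119 (SD, n = 3), which was 1.10 on the log2 scale (limma adjusted p = 0.003007). Solyc02g082930 did not pass there, at 0.09 (limma adjusted p = 0.7741). Nearest to Solyc08g080660 were Solyc01g067860, at 0.40, and Solyc01g104830, at 0.42, each with no read in mock shoot. Their root values were 163 ± 52.2 and 263 ± 65.9 in mock and 276 ± 119.5 and 423 ± 86.7 in PA, and neither passed in root (limma adjusted p = 0.3216 and 0.1127). For Solyc08g080650 the nearest were Solyc09g007640, at 0.29, and Solyc04g071070, at 0.39, and for Solyc08g080640 Solyc02g084790, at 0.42, and Solyc05g007630, at 0.53. None of these 4 passed in root by limma, with log2 fold changes of 0.20, 0.49, 0.19 and 0.18. Between cluster members the difference was 0.98 for Solyc08g080640 and Solyc08g080660 and 1.70 for Solyc08g080640 and Solyc08g080650. These are larger than the values above, but those loci were picked as the nearest, so the order was largely set by the choice. Of the 10872 loci, 119 were closer to Solyc08g080640 than Solyc08g080660 was, and 379 were closer than Solyc08g080650. Around Solyc08g080650, 3048 were closer than Solyc08g080640 was.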

How the data were processed

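The authors deposited 1 table of normalized counts (a signal per locus, not raw counts) for 12 libraries, and all its columns were used. QuantSeq 3′ libraries were made, per the labels' protocols, and the tools listed in the submitters' processing notes are STAR 2.6.1d, Trimmomatic 0.38, FastQC 0.11.8 and DESeq2. The sources used here name no counter, genome build or annotation. All values (100%) lay within 0.01 of a whole number of reads, so reads were recovered, with size factors of 0.6402 to 1.313.

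The main test was limma 3.58.1 (R 4.3.3) with an intensity trend on log2(value + 1), two-sided, over all loci with a mean of at least 10 in the libraries compared (in each tissue for the interaction), adjusted by Benjamini-Hochberg and called below 0.05. This scale understates changes of low loci. The whole-read count tests were DESeq2 1.42.0 and edgeR 4.0.16 (calls of the latter: 237 loci for shoot, 226 for root). Only the limma fit was tried on simulated data, drawn with the same spread setting for all loci, and the outcome is not given here. Groups came from the sample titles. Nothing beyond the pooling of plants says how samples were kept apart, and p-values then measure only the spread among these samples, which may be technical. No replicates agreed within sampling noise (chi-square per degree of freedom 3.836 to 9.915).

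Members, lists (PR-1, PR-2, PR-3, photosynthesis and uptake loci), neighbours and named loci (all members, called neighbours and the 2 loci of nearest profile for members with a mean of at least 50) were chosen with earlier results of these data known. The reference table, of assembly SLM_r2.1, matched 0 identifiers. Figures used matplotlib 3.10.9.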

Additional observations from a re-analysis of the deposited data

How the results depend on the processing

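Each fit was repeated with a pseudocount of 0.5 or 5, without the filter or with a minimum mean of 50, with TMM or quantile scaling, with DESeq2 or edgeR, with a block for the replicate number, with library weights, with 1 fit over all 12 libraries, and without each library in turn. Of 292 member values under them, 288 kept their direction and 272 also their side of the threshold. The 4 that reversed all concern Solyc01g097240, which was called under none of the alternatives in these comparisons: with 1 library left out its root fold change ran from -0.02179, the reversed value, seen without mock root replicate 1, to 1.104, and the difference of its PA effect between tissues ran from -0.867 to 0.2588. That difference turned positive when mock root replicate 2 (0.2588) or 3 (0.2587) or PA root replicate 2 (0.05479) was omitted.

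With all 12 libraries in one fit, 0 members were called for the PA effect in shoot, against 1, and 0 in root, against 4; the cause was not tested. Leaving out 1 library gave 1 to 4 members called in root, 1 in shoot, 0 for the difference between tissues and 6 between mock tissues. With a filter of 50 no member could enter the test of the difference between tissues.

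Over the whole table, the 229 loci called in shoot became 357 with DESeq2, 370 with quality weights and 62 to 383 with 1 library left out. In root the 232 became 386, 402 and 14 to 517. For the interaction the 49 became 75 with edgeR, 169 with DESeq2, 102 with weights and 15 to 160 with 1 library left out.

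Same-numbered samples deviated together by -0.05265 to 0.1018 within tissues, and were not taken as pairs. In root not every sample correlated best with its own number. Each mock root sample did correlate best with the mock shoot sample of its number, at 0.042, 0.044 and 0.089. Each mock shoot sample likewise correlated best with the PA shoot sample of its number, at 0.071, 0.074 and 0.014. From the PA side, PA shoot replicate 3 correlated best with mock shoot replicate 2, at 0.031. With the replicate block 376 loci were called in shoot, 441 in root and 110 for the interaction, and the members called numbered 1, 4 and 0 as without it, and 6 between mock tissues.

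Shoot values of Solyc08g080640, Solyc08g080660 and Solyc08g080670 and root values of Solyc08g080620 and Solyc01g097280 rest on a few reads, which limits any comparison there.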
